A study of Mus musculus with 12 samples.

Results

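The Nduf genes encode the nuclear subunits of respiratory complex I, the factors that assemble it, and a few relatives that carry the name. They were taken as every gene whose symbol starts with Nduf, which gave 48 of the 18050 genes in the deposited table. Of these, 7 are core subunits, 29 are accessory subunits and 8 are assembly factors (Ndufaf1 to Ndufaf8). The remaining 4 are Ndufa4, its paralogue Ndufa4l2, and Ndufb4b and Ndufb4c, which are copies of Ndufb4. RNA was sequenced from the left ventricle of wild-type mice 7 days after a sham operation or after MI, read here as myocardial infarction, with 6 libraries in each group. The submitters' processing notes differ between replicates 1 and 2 and replicates 3 to 6, so each comparison was also read within each of these sets. Strain, sex and age are not given in the labels. Separate animals are not stated for the libraries, and the p-values therefore describe the spread among libraries, part of which may be technical.

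Complex I takes electrons from NADH, passes them along a chain of iron-sulfur clusters to ubiquinone, and pumps protons across the inner mitochondrial membrane. Its matrix arm holds the NADH-oxidising N module and the quinone-reducing Q module, and its membrane arm holds a proximal and a distal pumping part. The heart is densely packed with mitochondria, and most of its ATP comes from this chain. The core subunits encoded in mitochondrial DNA were not analysed here.

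Expected counts summed to between 9140350 and 18602200 per library. Levels are given as CPM, counts scaled to the library total and by TMM, a method that sets the bulk of genes equal between libraries, or as FPKM, which also divides by gene length, where genes are compared with each other. A gene is said to have fallen or risen only where 2 edgeR quasi-likelihood tests gave it an adjusted p under 0.05 in the same direction. The first used all 12 libraries, and the other counted replicates 3 to 6 of a group once, because these 4 libraries lay very close together. Among the 13592 genes in both tests, 29.8% fell and 28.1% rose. All 13 cardiomyocyte markers fell, and 6 of 7 fibroblast markers and 7 of 10 macrophage and leukocyte markers rose. Of 7 endothelial markers 2 fell, which is near the share of all genes. The sets differed for these: 5 were called lower in replicates 1 and 2, but 3 lower and 4 higher in replicates 3 to 6. Replicates 3 to 6 carried further differences between the groups. The lung surfactant genes Sftpa1, Sftpb, Sftpc and Sftpd summed to 158 to 163 CPM in the MI libraries of this set, and to at most 0.362 CPM in every other library. Transcripts of Hbb-bs and Hbb-bt made up at least 99.88% of the adult beta-globin transcripts in sham replicates 3 to 6 and at most 0.194% in MI replicates 3 to 6. Both differences set every MI library of replicates 3 to 6 apart from every sham library of this set. Their part in the fold changes of replicates 3 to 6 was not tested and cannot be told apart from that of MI.

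Nuclear complex I transcripts were lower after MI almost without exception. Of the 47 Nduf genes tested, 46 fell, against 29.8% of all genes tested. These were 7 of 7 core subunits, 29 of 29 accessory subunits, 8 of 8 assembly factors, Ndufa4 and Ndufb4c. The exception was Ndufa4l2, and Ndufb4b, with 0 to 8.5 expected counts per library, was too low to test. The median log2 fold change over 12 libraries was -2.26 for core subunits, -2.13 for accessory subunits and -1.57 for assembly factors, against 0.01 for all genes tested. In the same order of roles, the medians were -3.38, -2.81 and -2.12 in replicates 1 and 2, and -1.62, -1.68 and -1.21 in replicates 3 to 6. Core subunits thus had the most negative median in replicates 1 and 2, but not in replicates 3 to 6. Adjusted p-values of the 46 genes reached at most 5.27e-05 with 12 libraries and 0.0042 with replicates 3 to 6 counted once (edgeR). In the 12-library test by itself, 46 were lower, against 38.0% of all genes, and 1, Ndufa4l2, was higher, against 37.9%. In 45 members, every MI library lay below every sham library, as in 21.3% of all genes tested.

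Each set gave the same 46 genes on its own, where 32.9% of all genes were called lower in replicates 1 and 2 and 39.5% in replicates 3 to 6. No Nduf gene was called higher in replicates 1 and 2, where 34.1% of all genes were, and Ndufa4l2 was called higher in replicates 3 to 6, where 42.2% were. All 36 subunits were more than 2-fold lower in both sets. In replicates 1 and 2 all 36 were more than 4-fold lower and 16 more than 8-fold lower. In whole tissue, fewer cells of a type and less RNA per cell cannot be told apart.

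**Figure D1:**
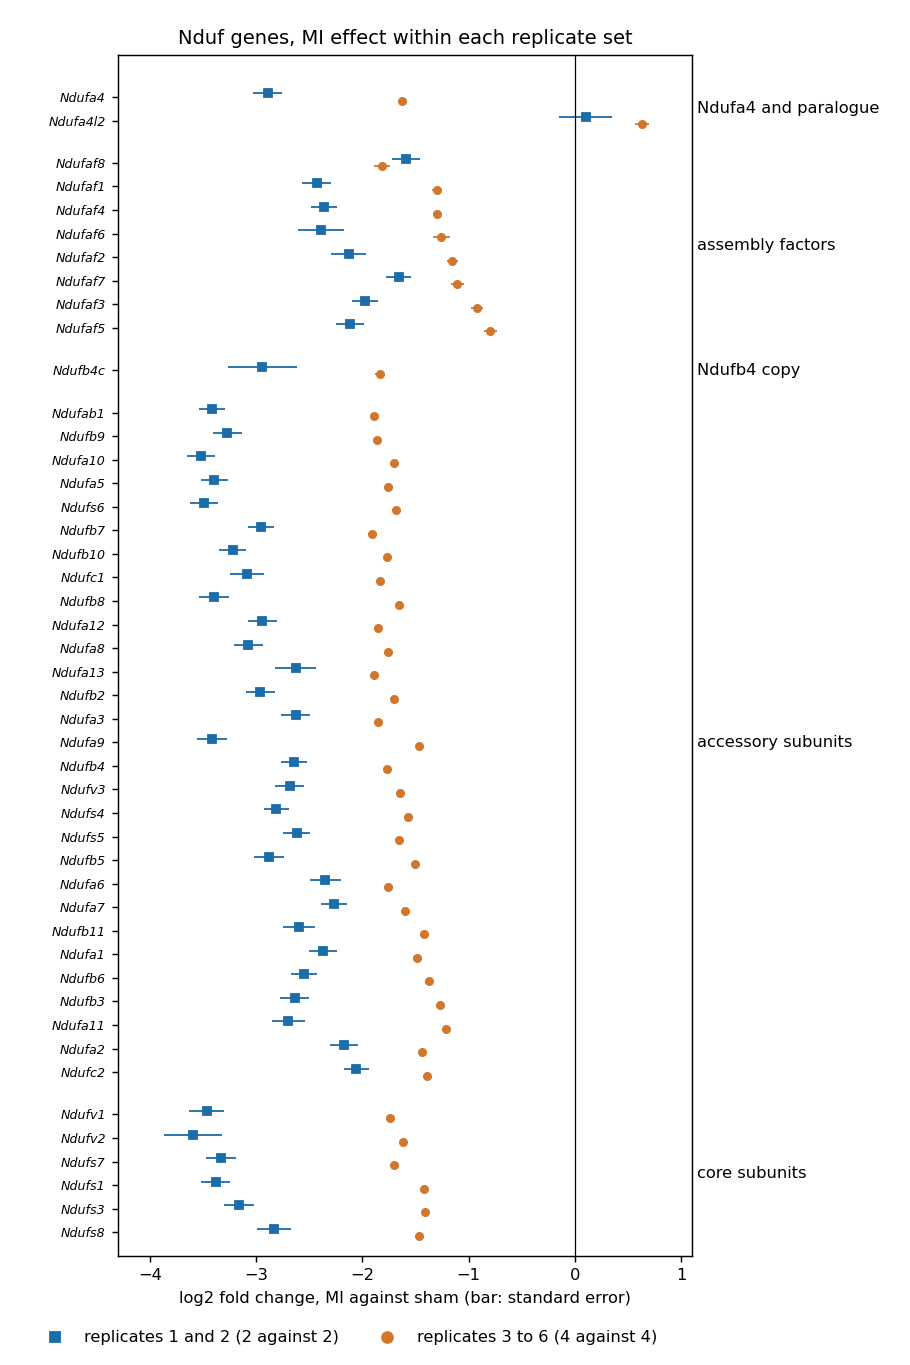
Log2 fold change of 46 tested Nduf genes, MI against sham, within replicates 1 and 2 (blue squares, 2 against 2 libraries) and within replicates 3 to 6 (orange circles, 4 against 4), with bars for the standard error. All points lie left of 0 except those of Ndufa4l2, and for Ndufaf8 alone among the genes left of 0 the blue square lies to the right of the orange circle.

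The core subunits carry the flavin and the iron-sulfur clusters of the matrix arm and are shared with bacterial complex I. Ndufs8, an iron-sulfur subunit of the Q module, had the least negative fold change of the 7, at -1.94 (SE 0.20, adjusted p = 2.39e-06, edgeR). It measured 284 and 337 CPM in sham and 47.8 and 40.5 CPM after MI in replicates 1 and 2. Replicates 3 to 6 gave 434, 481, 467 and 452 CPM in sham and 162, 159, 160 and 158 CPM after MI. Every MI library of Ndufs8 lay below every sham library.

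The core subunits lay close together within a set. In replicates 1 and 2 they were between 7.13-fold (Ndufs8) and 12.1-fold (Ndufv2) lower after MI. In replicates 3 to 6 all were at least 2.66-fold lower (Ndufs3). Ndufv2 forms the NADH-oxidising end with Ndufv1, and Ndufs3, which shares sequence with Gm12251, belongs to the Q module.

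Accessory subunits surround the core and are needed for assembly and stability rather than for electron transfer itself. Ndufab1, the mitochondrial acyl carrier protein, which also serves fatty acid and lipoate synthesis, had the most negative fold change of the 29. It measured 595 and 590 CPM in sham and 56.5 and 55.8 CPM after MI in replicates 1 and 2. Its levels in replicates 3 to 6 were 891, 927, 934 and 929 CPM in sham and 241, 241, 241 and 233 CPM after MI. The groups stood far apart in each set, and the fold change was -2.42 on the log2 scale (SE 0.22, adjusted p = 9.28e-07, edgeR). Of its 50-base words, 12.3% also occur in transcripts of other genes, most often Gm4459, so its level is uncertain to that extent. Ndufc2, a small subunit of the proximal membrane arm, had the least negative fold change, at -1.64 (SE 0.10, adjusted p = 2.83e-08, edgeR). It measured 210 and 193 CPM in sham and 47.9 and 50.1 CPM after MI in replicates 1 and 2. Across replicates 3 to 6 the values were 450, 428, 453 and 441 CPM in sham and 167, 163, 158 and 163 CPM after MI. Its sham levels in replicates 1 and 2 thus came nearer to the MI levels of the other set than those of Ndufab1 did.

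Ndufb9, a protein of the distal membrane arm, had the highest mean sham level per length of the subunits, 1695 FPKM, next to 1693 FPKM for Ndufb8 of the same arm. Sham replicates 1 and 2 had the opposite order, at 1141 and 1227 FPKM for Ndufb9 and 1343 and 1493 FPKM for Ndufb8, so the order of this pair is not settled. Ndufb9 measured 862 and 919 CPM in sham and 95.1 and 91.3 CPM after MI in replicates 1 and 2. In replicates 3 to 6 it measured 1399, 1352, 1441 and 1372 CPM in sham and 379, 372, 372 and 358 CPM after MI. Its log2 fold change was -2.35 (SE 0.21, adjusted p = 7.09e-07, edgeR), close to that of Ndufab1. Exons of Gm49356 on the same strand cover 19.5% of its exon bases, so reads of the 2 genes could be shared.

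The 4 structural parts of the complex gave like values. The median log2 fold change over 12 libraries was -2.05 for 10 genes of the N module, -2.19 for 6 of the Q module, -2.13 for 9 of the proximal membrane arm and -2.14 for 11 of the distal membrane arm. In replicates 1 and 2 the medians were -2.88, -3.36, -2.63 and -2.96 in that order, and in replicates 3 to 6 they were -1.64, -1.59, -1.70 and -1.70. The Q module thus had the most negative median in replicates 1 and 2 and the least negative in replicates 3 to 6. These medians are descriptions and were not tested against each other.

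Assembly factors build the complex from its modules and do not remain in it. All 8 Ndufaf genes fell, over 12 libraries by smaller amounts than most subunits, with log2 fold changes from -1.77 to -1.25. They are also far less abundant: their mean sham levels ran from 19.6 to 90.4 FPKM, against 179 FPKM or more for every subunit. Ndufaf5 hydroxylates an arginine of the core subunit Ndufs7, and Ndufaf8 is its binding partner; over 12 libraries they had the least and the most negative value. In replicates 1 and 2 alone Ndufaf8 instead had the least negative log2 fold change of the 8, -1.59, and Ndufaf1 the most negative, -2.43. In replicates 3 to 6 alone Ndufaf8 had the most negative of the 8, -1.82, which was also more negative than the median of the 36 subunits, -1.67. Ndufaf8, also the most abundant of the 8 per length, measured 37.8 and 35.1 CPM in sham and 12.1 and 12.4 CPM after MI in replicates 1 and 2. Replicates 3 to 6 gave 57.2, 56.2, 47.3 and 45.6 CPM in sham and 15.005, 14.5, 12.5 and 14.5 CPM after MI. Its log2 fold change was -1.77 (SE 0.09, adjusted p = 4.48e-09, edgeR). Ndufaf5 measured 39.1 CPM in each sham library and 8.95 and 9.25 CPM after MI in replicates 1 and 2. Its levels in replicates 3 to 6 were 42.3, 45.6, 47.7 and 46.2 CPM in sham and 26.2, 26.5, 22.9 and 25.7 CPM after MI. The sham levels of Ndufaf5 were alike in the 2 sets while its MI levels were not. Its log2 fold change was -1.25 (SE 0.18, adjusted p = 5.27e-05, edgeR). The other 6 lay between them over 12 libraries: Ndufaf1, which acts with Ecsit in building the membrane arm, at -1.69, Ndufaf4 and Ndufaf3, which work together on the Q module, at -1.67 and -1.30, and Ndufaf7, a methyltransferase, at -1.32. Ndufaf6, needed early in assembly, had -1.65.

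Ndufaf2 is a paralogue of the accessory subunit Ndufa12 and holds its place until the N module is attached. Ndufa12 fell by 2.24 and Ndufaf2 by 1.49 on the log2 scale over 12 libraries. The other assembly factors also fell by less than Ndufa12, so this difference is not particular to Ndufaf2. The level of Ndufaf2 as a share of that of Ndufa12, in FPKM, was 10.6% in each sham library and 19.5% and 17.8% after MI in replicates 1 and 2. The share in replicates 3 to 6 ran from 10.7% to 13.04% in sham and from 17.9% to 19.8% after MI, so the groups did not overlap in either set. Antisense exons of B230220B15Rik cover 65.6% of the Ndufaf2 exon bases, and strandedness is not given. Of the 50-base words of Ndufa12, 17.2% occur in transcripts of other genes, most often Gm15920, so both levels are uncertain. In the authors' deposited separate table for replicates 1 and 2 the share was lower, at 5.46% and 5.61% in sham and 9.98% and 9.28% after MI, and again did not overlap. Assembly factors without the Nduf prefix gave a like picture: 12 of 12 fell, against 29.8% of all genes tested. The median of these factors was -1.39 on the log2 scale. They ran from Ecsit at -2.11 (SE 0.17) to Dmac1 at -0.78 (SE 0.06).

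**Figure D2:**
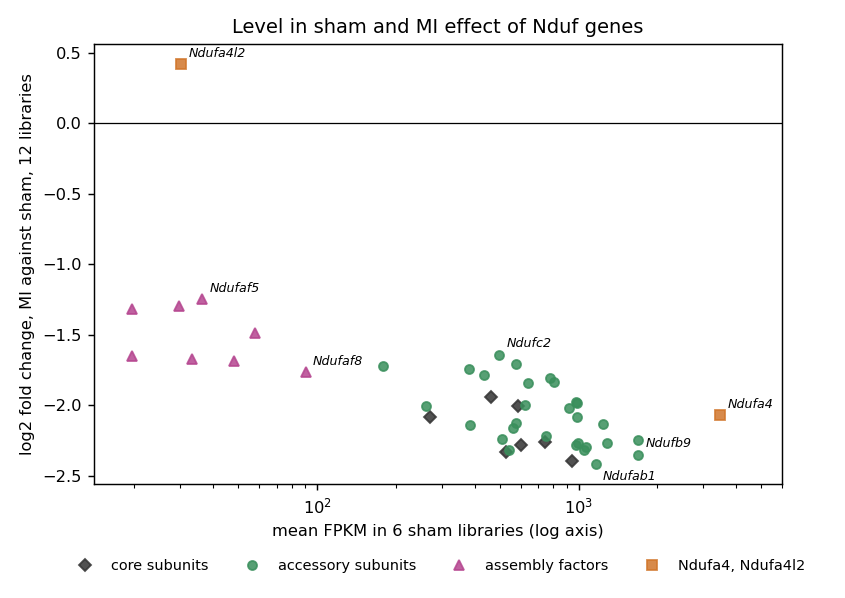
Mean FPKM over the 6 sham libraries (log axis) against the log2 fold change over 12 libraries for core subunits (diamonds), accessory subunits (circles), assembly factors (triangles) and the Ndufa4 pair (squares). The assembly factors lie at the left, from 19.6 to 90.4 FPKM and from -1.77 to -1.25, the subunits at the lower right, and Ndufa4l2 alone lies above 0.

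Across the 44 core, accessory and assembly genes, higher levels in sham went with more negative fold changes, with Pearson's r of -0.80 and Spearman's rho of -0.71. Among the 36 subunits alone r was -0.50 and rho -0.48. These values are descriptions across genes of the same libraries, and the sham level enters both measures.

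Ndufa4 and Ndufa4l2 are paralogues of which Ndufa4 alone fell. Ndufa4 was named for complex I but is now counted with complex IV, and Ndufa4l2 is known as a target of the hypoxia-inducible factor HIF-1 and as a transcript of pericytes. Ndufa4 was the most abundant Nduf gene per length, at 3482 FPKM in sham. It measured 895 and 906 CPM in sham and 131 and 115 CPM after MI in replicates 1 and 2. Across replicates 3 to 6 the values were 2175, 2172, 2357 and 2286 CPM in sham and 692, 707, 708 and 703 CPM after MI. It fell by 2.07 on the log2 scale (SE 0.19, adjusted p = 9.81e-07, edgeR), like the subunits, and every MI library lay below every sham library (exact two-sided permutation p = 0.00216 across the sets and 0.00476 within them, the smallest that each allows). With replicates 3 to 6 counted once, the exact permutation p was 0.1, again the smallest possible.

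Ndufa4l2 measured 47.7 and 63.7 CPM in sham and 74.1 and 47.2 CPM after MI in replicates 1 and 2. In replicates 3 to 6 it measured 20.5, 22.1, 20.2 and 20.3 CPM in sham and 31.0, 28.7, 30.9 and 33.9 CPM after MI. The groups overlapped in replicates 1 and 2, while all 4 MI libraries exceeded all 4 sham libraries in replicates 3 to 6. The log2 fold change was 0.42 over 12 libraries (SE 0.13, adjusted p = 0.00926, edgeR) and 0.26 with replicates 3 to 6 counted once (SE 0.23, adjusted p = 0.364, edgeR), so the gene was not called. A fit without the term for the sets gave 0.33 (adjusted p = 0.445, edgeR). It was 0.10 (SE 0.25) in replicates 1 and 2 and 0.63 (SE 0.07) in replicates 3 to 6, and the difference between the sets did not pass either test (adjusted p = 0.0888 and 0.535, edgeR). Exact two-sided permutation tests of its CPM gave p = 0.413 over 12 libraries with labels permuted across the sets, whose levels differ, and p = 0.0905 with labels permuted only within each set. Within replicates 3 to 6 the exact permutation p was 0.0286, the smallest that 4 against 4 libraries allow. With replicates 3 to 6 counted once and labels permuted across the sets, the exact permutation p was 0.8, where 3 against 3 allow 0.1 at the smallest. Scaled by library size alone, without TMM, the log2 fold change was 0.83 and both tests called it higher (adjusted p = 3.92e-05 and 0.0314, edgeR). This scaling moved the median of all genes by 0.41 on the log2 scale, and with it 7779 genes were called higher and 3208 lower over 12 libraries, against 5180 and 5186 with TMM. The 46 lower Nduf genes were called lower under either scaling.

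The level of Ndufa4l2 as a share of that of Ndufa4, in FPKM, separated the groups within each set. It was 2.62% and 3.45% in sham and 27.8% and 20.2% after MI in replicates 1 and 2. In replicates 3 to 6 it ran from 0.421% to 0.4999% in sham and from 1.99% to 2.36% after MI. MI replicates 3 to 6 thus lay below sham replicates 1 and 2. A ratio shows unequal change and does not say that Ndufa4l2 itself was constant.

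Of 12 pericyte and smooth muscle markers, 6 rose, 3 fell and 3 were not called, where 28.1% of all genes tested rose and 29.8% fell. The summed level of these markers was 1854 to 1903 CPM in sham and 1925 to 2111 CPM after MI in replicates 1 and 2, and 1818 to 1890 CPM and 1856 to 1907 CPM in replicates 3 to 6. This sum joins opposite changes. In each set Rgs5, Kcnj8 and Abcc9 were lower in every MI library than in every sham library. Rgs4 was lower after MI in replicates 1 and 2 and higher in replicates 3 to 6. The remaining markers were higher in every MI library than in every sham library of each set. The most negative marker was Abcc9, a channel subunit of pericytes, at -2.20 (SE 0.16). The most positive was Tagln, a smooth muscle protein, at 2.54 (SE 0.16). Of 15 HIF targets, 8 fell, 3 rose and 4 were not called, where 29.8% of all genes tested fell and 28.1% rose. The median fold change of the 15 targets was -0.73 on the log2 scale. The targets that rose were Pfkfb3, which drives glycolysis, P4ha1, a collagen prolyl hydroxylase, and Car9, a carbonic anhydrase. The part of either list in the Ndufa4l2 values was not tested.

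The size of the fall differed between the sets. The interaction of set and group was called by both tests for 30 of the 47 genes, each with a less negative fold change in replicates 3 to 6, against 6.67% of all genes in that direction. None was called in the other direction, against 3.86% of all genes. They were 6 of 7 core subunits, 19 of 29 accessory subunits, 4 of 8 assembly factors and Ndufa4. The same direction was called for 29 of 42 tested subunits of complexes II to V and for 9 of 13 cardiomyocyte markers. The difference between the sets was thus not particular to the Nduf genes. The median log2 fold change of the 36 subunits was -2.95 in replicates 1 and 2 and -1.67 in replicates 3 to 6. The largest called differences belonged to Ndufs1 and Ndufa9.

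Ndufs1, the largest core subunit and a carrier of iron-sulfur clusters in the N module, measured 926 and 828 CPM in sham and 86.5 and 83.5 CPM after MI in replicates 1 and 2. Replicates 3 to 6 gave 791, 744, 789 and 810 CPM in sham and 287, 282, 281 and 281 CPM after MI. The sham levels nearly met while the MI levels stood apart, and the fold changes differed by 1.90 on the log2 scale (SE 0.08, adjusted p = 5.31e-10, and 0.0163 with replicates 3 to 6 counted once, edgeR). Ndufa9, an accessory subunit that binds NADPH beside the quinone site, measured 788 and 844 CPM in sham and 81.1 and 73.2 CPM after MI in replicates 1 and 2. Its levels in replicates 3 to 6 were 866, 843, 875 and 874 CPM in sham and 303, 296, 307 and 299 CPM after MI. It showed the same arrangement as Ndufs1, with a difference of 1.88 (SE 0.08, adjusted p = 4.28e-10, and 0.0167 with replicates 3 to 6 counted once, edgeR). Ndufaf8 was the tested gene whose difference pointed the other way, as its log2 fold change was -1.59 in replicates 1 and 2 and -1.82 in replicates 3 to 6. This difference did not pass (adjusted p = 0.107 and 0.361, edgeR).

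The sets also differed in their sham levels, and not alike for all members. The log2 ratio of sham CPM, replicates 1 and 2 over replicates 3 to 6, had a median of 0.17 for core subunits, with a range from -1.14 (Ndufv2) to 0.65 (Ndufv1), and of -0.61 for accessory subunits. These 2 core partners therefore changed rank between the sets: sham Ndufv1 measured 1260 and 1265 CPM in replicates 1 and 2 and 770 to 845 CPM in replicates 3 to 6. Sham Ndufv2 measured 559 and 592 CPM and 1266 to 1273 CPM. Among MI libraries the corresponding medians were -1.51 for core and -1.71 for accessory subunits. Set, processing and any difference between the animals cannot be told apart. Fold changes are the quantities compared here, but they are not free of such differences. In replicates 3 to 6 the groups also differed in surfactant and beta-globin transcripts in every library. The part of this in the fold changes of that set was not tested and cannot be told apart from that of MI.

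The members' summed level moved with that of cardiomyocyte markers. The 36 subunits summed to 19114 and 20186 CPM in sham and to 2502 and 2264 CPM after MI in replicates 1 and 2. The sums in replicates 3 to 6 lay between 24972 and 25939 CPM in sham, against 7680 to 7811 CPM after MI. The 13 cardiomyocyte markers summed to 143568 to 145302 CPM in sham and 8246 to 13002 CPM after MI in replicates 1 and 2, and to 123564 to 126404 CPM and 38124 to 38773 CPM in replicates 3 to 6. No marker was at 0 in any library. In replicates 3 to 6 the ratio of subunits to markers overlapped between the groups, at 0.199 to 0.205 in sham and 0.198 to 0.204 after MI. In replicates 1 and 2 it was 0.132 and 0.141 in sham and 0.192 and 0.275 after MI, where the markers were lower by more than the subunits. The part of cardiomyocyte content in the lower Nduf levels was not tested.

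**Figure D3:**
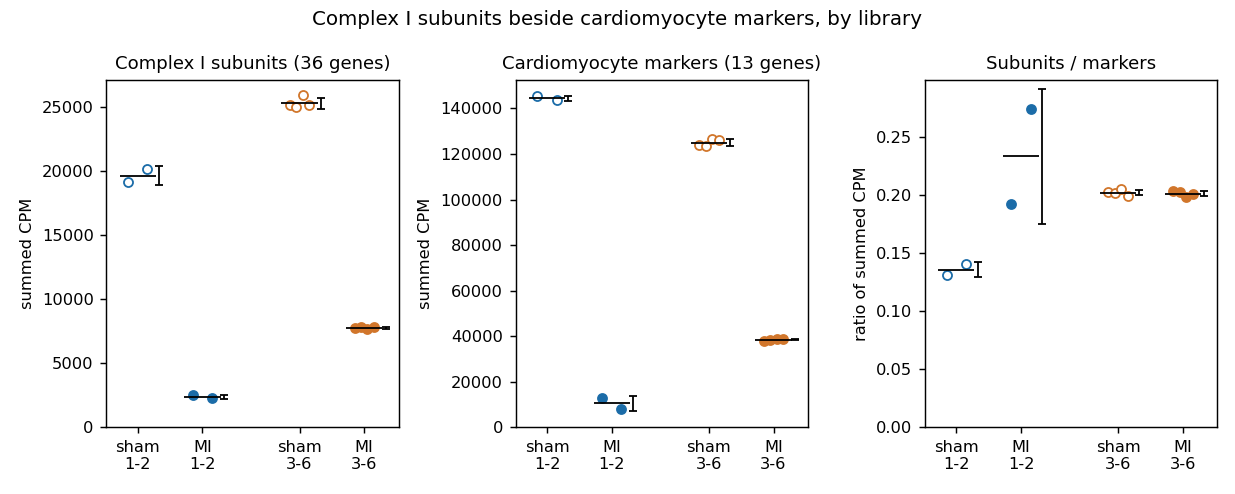
Summed CPM of the 36 complex I subunits (left) and 13 cardiomyocyte markers (middle) and the ratio of these sums (right) in each library, open circles for sham and filled circles for MI, with lines at the mean of each set and bars of 1 SD. The ratio overlaps between groups in replicates 3 to 6, at 0.199 to 0.205 and 0.198 to 0.204, and is higher after MI in replicates 1 and 2.

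The other respiratory complexes showed values like those of complex I. Of 42 tested subunits of complexes II to V, 40 fell, against 29.8% of all genes tested. The median log2 fold change over these 42 was -2.14, against -2.13 for the 36 complex I subunits. In replicates 1 and 2 these medians were -2.97 and -2.95, and in replicates 3 to 6 they were -1.69 and -1.67. Complex I subunits ran from -2.42 to -1.64, while the other complexes ran from Cox7a1, the muscle form of a complex IV subunit, at -3.26 (SE 0.38) to Cox6b2, the testis form of another, at 0.37 (SE 0.29). The uncalled genes there were Cox6b2, at 0.91 to 3.27 CPM in all libraries, and Cox6a1, the non-muscle form of its subunit. The difference in range was not tested.

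**Figure D4:**
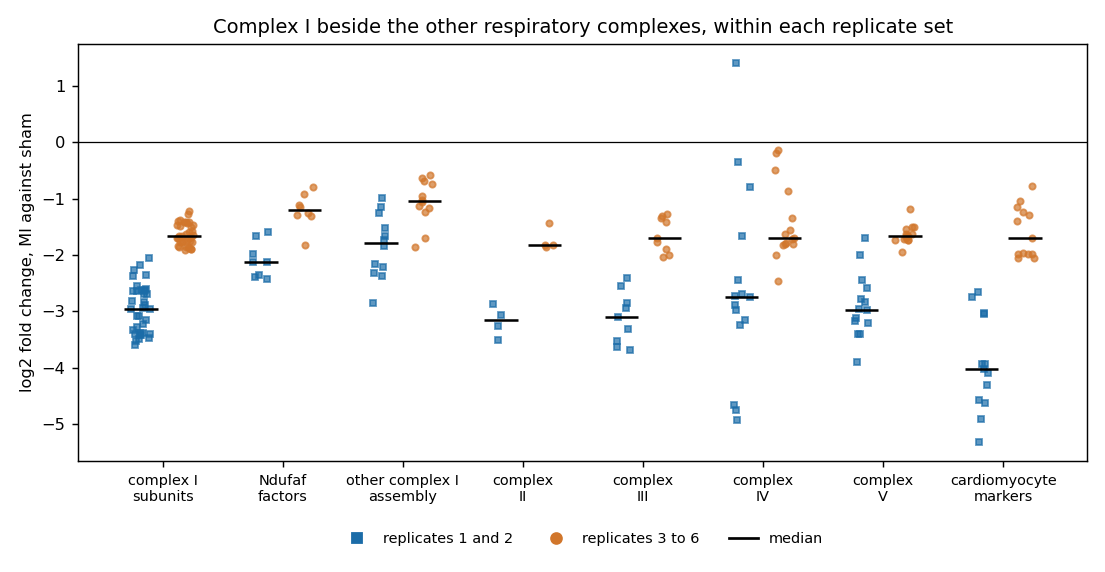
Log2 fold change of each tested gene within replicates 1 and 2 (squares) and replicates 3 to 6 (circles), by complex or list, with a line at the median. Complex I subunits have medians of -2.95 and -1.67, the 8 Ndufaf factors -2.12 and -1.21, and complex IV shows the widest range of the respiratory complexes.

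Several members share sequence or exons with another gene, which bears on how reads were assigned. Ndufb4c lies at chr15:73809449-73809933 (GRCm38.p6, minus strand) as a single exon. All of its 50-base words occur in transcripts of other genes, most often Ndufb4. Of the counts given to Ndufb4, Ndufb4b and Ndufb4c together, Ndufb4c held 8.67% to 16.7% in replicates 1 and 2 and 28.5% to 32.3% in replicates 3 to 6. Its own level is therefore uncertain, and the 3 copies are better read together. Summed, they measured 344 ± 6.22 CPM (SD, n = 2) in sham and 54.2 ± 1.73 CPM (SD, n = 2) after MI in replicates 1 and 2, and 788 ± 16.6 CPM (SD, n = 4) and 220 ± 4.84 CPM (SD, n = 4) in replicates 3 to 6. Ndufb4 and its copies were named for this after their values were seen. Of the 47 genes matched to GENCODE, 28 share no exon base with another gene, and 7 have more than 10% of their exon bases under one. After Ndufaf2, the most covered were Ndufb6, with 39.0% under Smim27, and Ndufa13, with 30.0% under Tssk6. In 7 genes more than 10% of the 50-base words occur in transcripts of other genes, and their levels are uncertain to that extent. Among them were Ndufs3, with 35.8%, most often in Gm12251, and Ndufs5, with 31.1%, most often in BC002163. Ndufb9 had 23.4%, most often in Gm49356.

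The promoters of the genes that fell together were searched for 4 motifs of factors known to drive respiratory genes. Windows of 300 bases, 250 before and 50 after the start, came from RefSeq (GRCm38.p6) for 32 of the 36 subunits, and both strands were searched. Genes were counted, and a gene with windows at different starts held a motif if any of its windows did. The NRF1 motif (GCGCA, then any base, then GCGC) was in 7 of the 32 subunits (21.9%), against 10.7% of 10857 tested genes with a window. The YY1 motif AANATGGCG was also in 7 (21.9%), against 5.49%. The ETS motif CCGGAAG, read by GABPA, was in 4 (12.5%), against 18.7%, and the ERR motif TNAAGGTCA was in 1 (3.13%, Ndufb4), against 0.893%. Matches of different motifs did not overlap in these windows. A match is a description of letters and not of a bound site. The stretches below show the NRF1 motif in 2 subunits that fell and the ETS motif in another, with the motif in capitals, each read 5′ to 3′ along the gene's own strand. They lie upstream of the start, outside annotated exons, on the minus strand of GRCm38.p6, at chr16:37654525-37654584 for Ndufb4, chr4:123718250-123718309 for Ndufs5 and chr4:40279612-40279671 for Ndufb6.
Ndufb4: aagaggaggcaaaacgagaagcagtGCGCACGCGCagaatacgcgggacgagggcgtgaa
Ndufs5: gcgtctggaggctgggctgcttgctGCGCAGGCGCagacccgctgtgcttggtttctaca
Ndufb6: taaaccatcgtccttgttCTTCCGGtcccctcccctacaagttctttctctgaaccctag

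In Ndufb4, a distal membrane-arm subunit, the printed match starts 191 bases before the start, and the window holds 2 further NRF1 matches nearer to it. In Ndufs5, a subunit of the proximal arm on its outer face, the match starts 98 bases before the start. In Ndufb6, a distal membrane-arm subunit, the motif is on the opposite strand and so reads CTTCCGG. The log2 fold changes of these genes over 12 libraries were -2.09 (SE 0.13) for Ndufb4, -1.9996 (SE 0.14) for Ndufs5, which shares sequence with BC002163, and -1.79 (SE 0.17) for Ndufb6. Subunits without a match or without a window ran from -2.42 to -1.64, a range that holds all of these values.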

How the data were processed

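Total RNA from the left ventricle was enriched for mRNA with oligo(dT), per the labels' protocols. The submitters' processing notes name Bowtie2, RSEM and DESeq2, without versions, for replicates 3 to 6, no tool for replicates 1 and 2, and the GRCm38 build for all. Expected counts, which need not be whole, were deposited unscaled for 18050 genes, of which 425 are blank in replicates 1 and 2. The authors also deposited FPKM and TPM values for the same libraries, and a separate table with FPKM for replicates 1 and 2. TPM was not used. Whether counting used strand was not stated.

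Rounded expected counts went into edgeR 4.0.16 in R 4.3.3 (quasi-likelihood F test, TMM scaling, filterByExpr), with the set as covariate and Benjamini-Hochberg adjustment over all genes tested: 13654 genes with 12 libraries and 13970 with replicates 3 to 6 summed. The difference between sets was the interaction of set and group. Standard errors were obtained as the log2 fold change divided by the root of F. Ndufa4 and Ndufa4l2 were compared by exact permutation of CPM, across all libraries, within sets, and with replicates 3 to 6 counted once. Exon overlap came from GENCODE M21 and coordinates from RefSeq, to which 48 of 48 genes were matched. Structural modules were assigned from general knowledge of the complex. Replicate numbers were not treated as pairs in the main tests. The genes and lists were chosen with earlier results of these data known. Values per library are given for Ndufa4 and Ndufa4l2, for the most and least negative and the most abundant gene of each role, for genes not called, and for the 2 largest called differences between sets, except 1 gene whose values are not reported here; genes of other lists are the ends of their range or exceptions. Alternatives covered scaling, test, filters, leaving out each library or the covariate, and a replicate block.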

Additional observations from a re-analysis of the deposited data

Results flagged for a closer look

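In the sham group, replicate 1 of Ndufa9 measured 788 CPM and lay apart from the other 5 sham libraries, which ran from 843 to 875 CPM. This was 1 of 22 groups of 6 libraries looked at in this way. A chance rate of about 1 in 20 would hold for 6 libraries of 1 kind. These groups join replicates 1 and 2 with replicates 3 to 6, whose levels and spread can differ, so that rate need not hold. Within its own set replicate 1 has only replicate 2 beside it, at 844 CPM, and cannot be called apart there. The MI effect differed between replicates 1 and 2 and replicates 3 to 6 for 30 Nduf genes by both tests. The largest of these differences in log2 fold change, replicates 3 to 6 minus replicates 1 and 2, were 1.90 for Ndufs1 and 1.88 for Ndufa9.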

How the results depend on the processing

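The count of 46 lower Nduf genes was the same under every alternative run, in the 12-library test, in both tests together and within each set, including each library left out (46 to 46). The count of differences between sets was 29 in place of 30 with library size alone. Median log2 fold changes for core subunits, accessory subunits and assembly factors were -1.85, -1.72 and -1.16 with library size alone, -1.86, -1.73 and -1.13 with limma on log2(FPKM + 1), and -2.82, -2.43 and -1.75 with replicates 3 to 6 counted once. Leaving out each library in turn gave -2.34 to -1.98, -2.18 to -1.97 and -1.61 to -1.43. Ndufa4l2 lost its 12-library call with replicates 3 to 6 counted once (0.26, adjusted p = 0.364, edgeR) and without the set covariate (0.33, adjusted p = 0.445, edgeR), the latter level added after seeing the data with those for no low-count filter and a pseudocount of 0.1. Its other values ran from 0.39 to 0.83, with 0.39 to 0.56 when each library was left out. Ndufa4 ran from -2.14 to -1.90 when each library was left out. Same-numbered sham and MI libraries had correlations of deviations from -0.0392 to 0.0595. These low values cannot exclude pairing. In replicates 1 and 2 the deviations of a group mirror each other, and replicates 3 to 6 lay very close together. With the replicate block, 46 genes were lower, Ndufa4l2 had 0.42 (adjusted p = 0.0454, edgeR), Ndufa4 -2.07, and the medians were -2.26, -2.13 and -1.57. In the authors' separate table for replicates 1 and 2, FPKM of Ndufa12 and Ndufb2 were 1.82 and 1.81 times those of the joint table, while log2 fold changes differed by at most 0.0721 for 47 genes. The causes were not tested. Ndufb4b, with 0 to 8.5 expected counts per library, did not pass the low-count filter and was left untested.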
